A study of Mus musculus with 12 samples.

Results

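The receptors for glutamate and GABA, the main excitatory and inhibitory transmitters of the brain, were examined for H3K27me3 in fibroblasts. The genes were all autosomal protein-coding genes of the GENCODE M1 annotation of mm9 whose symbols name subunits of AMPA (Gria), kainate (Grik), NMDA (Grin) and delta (Grid) glutamate receptors, metabotropic glutamate receptors (Grm) or GABA-A receptors (Gabra, Gabrb, Gabrg, Gabrd, Gabrp and Gabrr). This rule gave 41 of 21418 autosomal protein-coding genes: 17 ionotropic glutamate, 8 metabotropic glutamate and 16 GABA-A receptor genes. No measured value entered the rule.

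Ionotropic receptors are ligand-gated channels built from several subunits, whereas metabotropic receptors signal through G proteins. The GABA-A receptors of most central synapses combine alpha, beta and gamma subunits, delta subunits occur in receptors outside synapses, rho subunits are best known from the retina, and the pi subunit from tissues outside the brain. H3K27me3 is deposited by the Polycomb repressive complex PRC2, whose catalytic subunit is Ezh2 or its paralog Ezh1, and it marks repressed genes, many of them genes of other lineages. In embryonic fibroblasts, genes that serve synapses belong to such lineages.

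H3K27me3 ChIP-seq was carried out on C2 iMEFs, immortalized mouse embryonic fibroblasts. Per the methods, 1 clone was taken from c-Myc transformed cells carrying an Ezh2 flox/deleted genotype and ROSA26-CreERT2, a Cre recombinase switched on by 4-hydroxytamoxifen, so that every group shares the clone, the c-Myc transformation and the Cre allele. Experiment 1 compared 2 libraries labelled Ezh2 WT/WT (wild type) with 2 labelled Ezh2 -/- (knockout), using an Active Motif antibody and SOLiD reads. Experiment 2 used the antibody clone 7b11 and Illumina reads on 2 wild-type libraries, 2 knockout libraries and 1 library each of cells in which Ezh1 or Ezh2 had been introduced by retrovirus before the deletion (Ezh1 rescue and Ezh2 rescue). The label WT/WT differs from the flox/deleted genotype that the methods give for the clone before treatment. Antibody, sequencing platform and experiment cannot be told apart. Treatment time is not given in the labels of these samples. The peak lists carry no measure of the Ezh2 deletion itself.

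The data are lists of peak positions with no height, so the measurements are the base pairs of a region that lie under peaks. Breadth under peaks is not a level of the mark, and in a bulk library fewer cells with the mark and a narrower mark in each cell cannot be told apart. The lists of experiment 1 hold 82566 and 82407 peaks in wild type and 36477 and 55564 in knockout. In experiment 2 the wild-type lists are much shorter, with 18284 and 13417 peaks, the knockout lists hold 29 and 382, and the Ezh1 and Ezh2 rescue lists hold 114212 and 64628. The methods give a common number of reads per sample after down-sampling, but the lists hold no read counts, and scaling coefficients of 0.05 for the knockout and 0.25 for the Ezh1 rescue were applied upstream by the authors before peaks were called. Promoter peaks were absent from all 12 fibroblast marker genes in both wild-type libraries of experiment 1. They were present in both at 5 of 8 neuron markers (Rbfox3, Tubb3, Syt1, Nefl and Eno2), beside 20.7% of all genes. A knockout peak in at least 1 library of that experiment was found at 1 fibroblast marker (Vim, 1697 and 1274 bp) and at 3 neuron markers. Of these 3, only Rbfox3 was also covered in both wild-type libraries, with 3705 and 3787 bp in knockout. In the knockout of that experiment, 6 of 6 housekeeping genes had a promoter peak in at least 1 library, beside 2352 of 21418 genes. Of the 6, 4 had one in both (4.65% of all genes), and none had one in any library of another group.

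The promoters of the receptor genes differ widely in CpG content, the sequence feature most often linked to Polycomb recruitment in mammals. The 250 bp upstream of the TSS are shown for 8 genes, taken from the NCBIM37 (mm9) reference on the strand of the gene, with each CG in capitals. They were chosen as the extremes of the ratio of observed to expected CpG over 1000 bp around the TSS. The first 4 genes had a peak in both wild-type libraries of experiment 1, at a promoter of high CpG content (Grin1, chr2:25174708-25174957, minus strand, and Grm4, chr17:27650287-27650536, minus strand) or of low CpG content (Gabrr1, chr4:33219246-33219495, plus strand, and Gabrp, chr11:33478960-33479209, minus strand). 
Grin1: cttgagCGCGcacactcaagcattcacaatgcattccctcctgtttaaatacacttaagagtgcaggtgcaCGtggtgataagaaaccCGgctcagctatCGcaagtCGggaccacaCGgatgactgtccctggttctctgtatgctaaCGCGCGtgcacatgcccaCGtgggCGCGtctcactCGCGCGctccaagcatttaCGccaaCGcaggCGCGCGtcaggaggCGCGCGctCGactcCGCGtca
Grm4: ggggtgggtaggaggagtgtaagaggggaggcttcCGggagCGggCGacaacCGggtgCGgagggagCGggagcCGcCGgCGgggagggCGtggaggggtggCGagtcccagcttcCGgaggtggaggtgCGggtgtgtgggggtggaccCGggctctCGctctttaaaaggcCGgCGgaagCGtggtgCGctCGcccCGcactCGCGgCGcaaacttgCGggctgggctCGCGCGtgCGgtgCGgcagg
Gabrr1: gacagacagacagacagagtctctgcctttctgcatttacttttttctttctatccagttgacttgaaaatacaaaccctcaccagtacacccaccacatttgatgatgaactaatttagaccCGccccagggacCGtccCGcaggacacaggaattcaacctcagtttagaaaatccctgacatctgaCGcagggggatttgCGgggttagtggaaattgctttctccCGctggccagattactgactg
Gabrp: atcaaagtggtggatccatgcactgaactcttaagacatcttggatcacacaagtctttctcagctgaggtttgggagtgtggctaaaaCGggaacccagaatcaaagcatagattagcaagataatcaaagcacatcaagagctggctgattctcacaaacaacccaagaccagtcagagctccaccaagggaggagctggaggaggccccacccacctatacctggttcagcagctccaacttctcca
The other 4 had no peak in wild type, and likewise include the highest (Grik3, chr4:125167694-125167943, plus strand, and Grid1, chr14:35632761-35633010, plus strand) and the lowest ratios (Gabrr2, chr4:33149724-33149973, plus strand, and Grm5, chr7:94750702-94750951, plus strand).
Grik3: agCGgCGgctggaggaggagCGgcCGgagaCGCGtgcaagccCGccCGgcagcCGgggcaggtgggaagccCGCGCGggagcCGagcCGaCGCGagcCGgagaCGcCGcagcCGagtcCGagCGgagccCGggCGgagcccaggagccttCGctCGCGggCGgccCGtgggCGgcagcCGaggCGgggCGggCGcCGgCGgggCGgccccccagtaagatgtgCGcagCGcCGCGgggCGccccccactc
Grid1: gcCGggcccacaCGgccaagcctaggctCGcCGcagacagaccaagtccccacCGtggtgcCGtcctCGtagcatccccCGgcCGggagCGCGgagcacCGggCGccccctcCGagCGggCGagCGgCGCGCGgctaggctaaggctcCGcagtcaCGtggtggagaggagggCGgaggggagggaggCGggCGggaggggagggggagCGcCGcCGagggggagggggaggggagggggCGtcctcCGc
Gabrr2: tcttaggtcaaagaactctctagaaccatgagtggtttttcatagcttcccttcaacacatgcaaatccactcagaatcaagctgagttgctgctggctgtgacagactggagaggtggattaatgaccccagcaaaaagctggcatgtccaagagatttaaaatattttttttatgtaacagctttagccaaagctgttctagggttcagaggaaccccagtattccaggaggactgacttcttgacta
Grm5: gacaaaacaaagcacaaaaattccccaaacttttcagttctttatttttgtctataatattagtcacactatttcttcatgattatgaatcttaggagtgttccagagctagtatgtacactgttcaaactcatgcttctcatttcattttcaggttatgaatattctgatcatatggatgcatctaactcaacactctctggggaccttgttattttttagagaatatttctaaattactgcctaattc
The windows of Grin1 and Grm4 hold 27 and 30 CG dinucleotides, that of Gabrr1 holds 6 and that of Gabrp 1. Those of Grik3 and Grid1, both without a wild-type peak, hold 42 and 30, and those of Gabrr2 and Grm5 hold none. Of all genes, 92.6% hold at least 1 CG in this window, and the median is 9.

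To find which receptor genes carry H3K27me3 when Ezh2 is intact, the promoter was taken to reach 2500 bp up- and downstream of the TSS, 5000 bp in all, and a gene was called marked when at least 1 bp of it lay under a peak in both wild-type libraries. In experiment 1, 11 of the 41 receptor genes were marked (26.8%), beside 20.7% of all genes. They included the NMDA subunits Grin1 and Grin2c, the kainate subunit Grik4, the metabotropic receptors Grm2, Grm4, Grm6 and Grm8, and the GABA-A subunits Gabrd, Gabrp and Gabrr1. Grik5, the kainate subunit KA2, had a peak in replicate 1 only. By class, the mark was found at 5 of 8 metabotropic receptor genes, at 3 of 17 ionotropic glutamate receptor genes, at 3 of 5 GABA-A genes for delta, pi and rho subunits and at 0 of 11 for alpha, beta and gamma subunits. Of the 3 rho genes, 1 was marked. The classes are small and their differences were not tested.

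**Figure D1:**
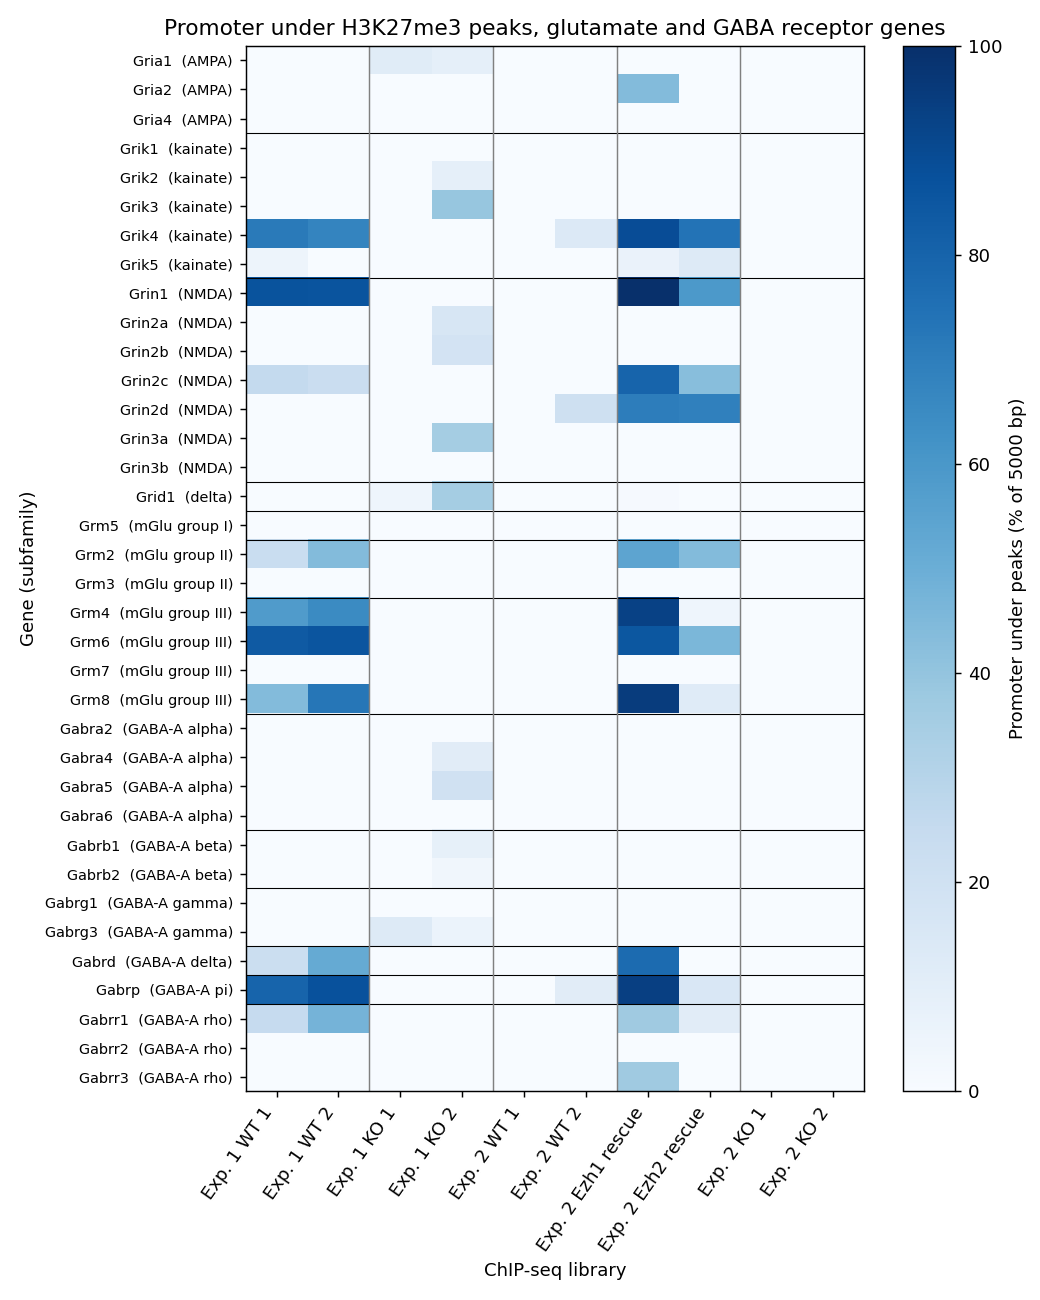
Share of the 5000 bp around each TSS that lies under H3K27me3 peaks (colour, percent), for 36 of the receptor genes (rows, grouped by subfamily) in the 10 libraries (columns). Apart from Grik5 the 2 wild-type columns of experiment 1 fill the same rows, which are empty in both knockout columns, and the rows shown for alpha, beta and gamma GABA-A subunits are empty in wild type and in both rescues.

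Promoter coverage was broad at Grin1, the obligatory subunit of NMDA receptors, with 4323 and 4302 bp under peaks in wild-type replicates 1 and 2. Grm6, the glutamate receptor of retinal ON bipolar cells, had 4199 and 4281 bp. Gabrp, the pi subunit, had 4003 and 4365 bp, and the 250 bp upstream of its TSS hold 1 CG. For these genes most of the promoter was covered, and the order of their means (4312.5, 4240 and 4184 bp) was within the spread of Gabrp (SD 256 bp, n = 2). Grik4, which encodes the kainate subunit KA1, had 3564 and 3375 bp. Grm4, a presynaptic autoreceptor gene, had 2896 and 3244 bp. Grm8, from the same group III of metabotropic receptors, had 2194 and 3635 bp, so that its replicates lay further apart than those of the genes above it.

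Coverage was narrower at other marked genes. Gabrd, the delta subunit, had 1125 and 2587 bp, and Gabrr1, the rho1 subunit, had 1239 and 2366 bp. Grm2, a group II presynaptic receptor, had 1159 and 2206 bp. Replicate 2 was higher in each of them, and the order of Gabrd (mean 1856 ± 1034 bp, SD, n = 2), Gabrr1 (1802.5 ± 797) and Grm2 (1682.5 ± 740) was within the spread. Grin2c, an NMDA subunit best known from the cerebellum, had 1289 and 1150 bp. Grik5, with a peak in 1 library, had 235 and 0 bp.

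All 11 marked genes lacked a promoter peak in both knockout libraries, as did 92.2% of all marked genes, so the loss at receptor genes was close to that of marked genes in general. Receptor genes marked in wild type and free of knockout peaks thus made up 26.8% of the 41, beside 19.1% of all genes, and none was marked in wild type with a peak left in knockout (1.60% of all genes). Each of the 11 had 0 bp in both knockout libraries. The groups therefore did not overlap for 11 of 41 genes (26.8%), beside 20.1% of all genes with wild type higher. An exact two-sided permutation test of 2 against 2 libraries gave p = 0.33 for each of these genes, the smallest value that this design allows. The mean per receptor promoter was 648 and 780 bp in wild type and 35.3 and 257 bp in knockout, against 508 and 563 bp and 52.5 and 93.8 bp over all genes. The labels do not say that the replicates are separate cultures, while the study describes its H3K27me3 density plots as made from biological replicates. Such a p-value concerns these libraries only, and it takes its smallest value whenever the groups do not overlap, whatever the spread within them.

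The knockout lists held promoter peaks at other receptor genes. In knockout, 12 of 41 promoters (29.3%) had a peak in at least 1 library. None of the 12 had a wild-type peak, whereas 19.3% of all genes with a knockout peak had one, and a knockout peak without a wild-type peak was found at 8.86% of all genes. The count rests on replicate 2, which had a peak at all 12 (8.36% of all genes), while replicate 1 had one at 3 (7.32%; 7.26% of all genes). Those 3, found in both libraries (7.32%, beside 4.65% of all genes), were Gria1, Gabrg3 and Grid1. Replicate 1 thus had a peak at 3 of the 12 promoters with a peak in replicate 2, whereas over all genes it had one at 55.6% of them. The peaks of the replicates overlapped at Grid1, and at Gria1 and Gabrg3 they lay side by side in the window without overlap. The groups did not overlap, with knockout higher, for these 3 genes (3.91% of all genes; exact permutation p = 0.33 for each). Without replicate 2, the number of genes with a knockout peak was 3.

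Gria1, the GluA1 subunit of AMPA receptors, had 0 and 0 bp in wild type and 583 and 437 bp in knockout. Gabrg3, the gamma3 subunit, had 0 and 0 bp in wild type and 648 and 298 bp in knockout, and the TSS of another gene, Gm9962, lies in its window. Grid1, the GluD1 subunit, had 0 and 0 bp in wild type and 217 and 1767 bp in knockout. The median width of peaks at receptor promoters was 1732 and 3997 bp in the wild-type libraries and 583 and 488 bp in the knockout libraries. Knockout replicate 1 had only 3 such peaks, and a Grid1 peak of replicate 2 spanned 2186 bp. Over the whole lists the median widths were 815 and 934 bp in wild type and 509 and 598 bp in knockout.

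The other 9 had 0 bp in both wild-type libraries and in knockout replicate 1. In knockout replicate 2, Grik3, the GluK3 kainate subunit, had 1970 bp, and Grin3a, an NMDA subunit that lowers calcium permeability, had 1762 bp. Gabra5, the alpha5 subunit abundant in hippocampus, had 991 bp, and the NMDA subunits Grin2b and Grin2a had 907 and 802 bp. Lower values were found for Gabra4 (564 bp), Grik2 (444 bp), Gabrb1 (422 bp) and Gabrb2 (160 bp), which encode alpha4, GluK2, beta1 and beta2. None of the 8 metabotropic receptor genes had a knockout promoter peak, whereas 7 of 17 ionotropic glutamate and 5 of 16 GABA-A receptor genes did, the latter 5 all of the alpha, beta and gamma type. Over all genes, 2352 of 21418 had a knockout promoter peak. In replicate 1 alone the counts were 2 of 17 and 1 of 16, beside 7.26% of all genes, and these class differences were not tested. Coverage of the housekeeping promoters in knockout ranged from 0 and 163 bp at Actb to 1298 and 1149 bp at Rplp0, with 1005 and 825 bp at Gapdh. Grik3, Grin3a and Grid1 lay above this range in replicate 2. Chromosome 5 carries 5 of the 41 genes, and 10 of the 12 genes with a knockout peak remained when chromosome 5 was left out. The part that the size of the knockout lists and peaks of the housekeeping kind have in these counts was not tested.

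**Figure D2:**
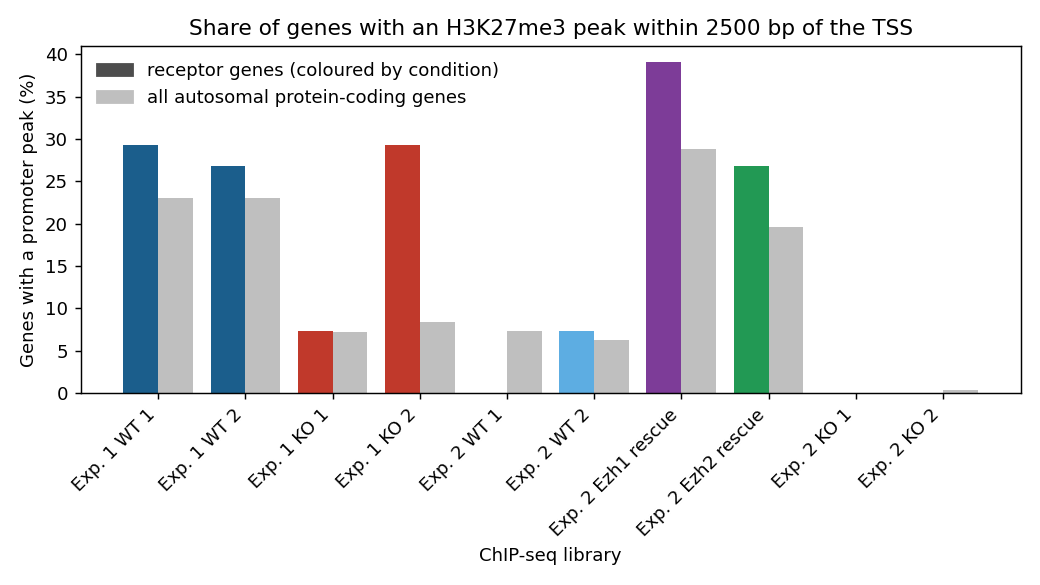
Percent of genes with at least 1 bp of the promoter under an H3K27me3 peak (vertical axis) in each of the 10 libraries (horizontal axis), for the 41 receptor genes (coloured bars) and all 21418 autosomal protein-coding genes (grey bars). The bar for receptor genes is above the grey one in knockout replicate 2 of experiment 1 (29.3% and 8.36%) and about level with it in knockout replicate 1 (7.32% and 7.26%).

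The position of the peaks relative to the TSS was then compared. At the 11 marked genes the wild-type peaks flanked the TSS: in the first 250 bp downstream of it, 18.2% and 18.8% of the sequence was covered on average in replicates 1 and 2, and in the 250-bp bin centred at -375 bp 50.5% and 51.0%. At Grin1, for example, the peaks of wild-type replicate 1 ran from position -4052 to -129 and from 549 to 13736 relative to the TSS. The TSS base itself was under a peak at 2 of 12 receptor genes with a peak in replicate 1 (24.7% of all genes with one) and at 3 of 11 in replicate 2 (30.2%). No knockout peak covered a receptor TSS, at 0 of 3 genes in replicate 1 (6.49% of all genes with a peak) and 0 of 12 in replicate 2 (12.4%). In the Ezh1 rescue the TSS was covered at 10 of 16 genes (52.6% of all genes with a peak), and in the Ezh2 rescue at 4 of 11 (30.3%). Setting these beside wild type of experiment 1 crosses antibody and platform. The narrowest peaks are also wider in the rescue lists, 550 bp against 150 bp in wild type of experiment 1, and the part of this was not tested.

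**Figure D3:**
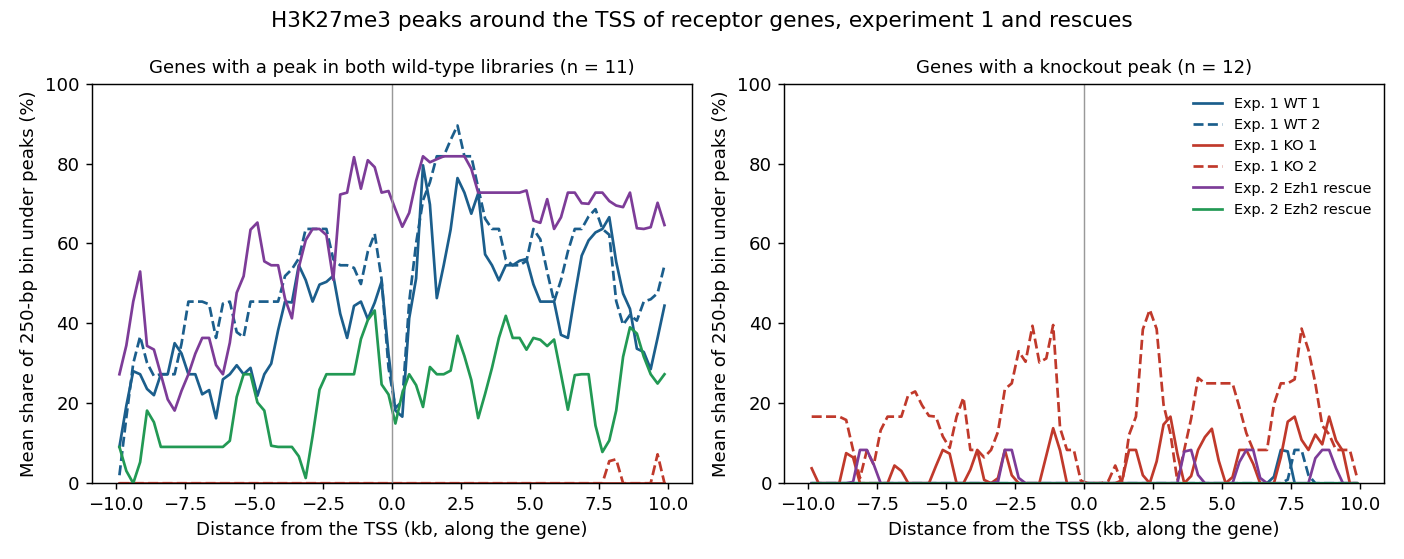
Mean share of each 250-bp bin under peaks (vertical axis, percent) against distance from the TSS along the gene (horizontal axis, kb), for the 11 receptor genes with a peak in both wild-type libraries of experiment 1 (left) and the 12 with a knockout peak (right), one line per library. On the left both wild-type lines dip at the TSS, to 18.2% and 18.8% in the first bin downstream. The rescue lines, from experiment 2 with another antibody and platform, are at 68.5% (Ezh1) and 14.9% (Ezh2) there.

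In experiment 2, in which Ezh1 or Ezh2 was expressed before the endogenous Ezh2 was deleted, the wild-type lists reached few receptor promoters. No receptor gene had a peak in both wild-type libraries (0 of 41, beside 3.24% of all genes), and replicate 1 had none at all (7.35% of all genes). Replicate 2 had 3 (6.33% of all genes): Grin2d, an NMDA subunit, with 1050 bp, Grik4 with 675 bp and Gabrp with 550 bp. Both knockout libraries had 0 bp at every receptor promoter, where 0.397% of all genes had a peak. With so few peaks in wild type, a loss in the knockout was not detectable at receptor promoters in this experiment. The mean per receptor promoter was 0 and 55.5 bp in wild type. Of the 11 genes marked in experiment 1, 2 had a peak in a wild-type library of experiment 2 (Grik4 and Gabrp), beside 38.6% of all genes so marked.

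Both rescues had peaks at most receptor genes that were marked in experiment 1. A peak was present at 16 of 41 promoters in the Ezh1 rescue (39.0%, beside 28.8% of all genes) and at 11 in the Ezh2 rescue (26.8%, beside 19.6%). Of the 11 genes marked in experiment 1, the Ezh1 rescue had a peak at all 11 (91.2% of all marked genes) and the Ezh2 rescue at 9 (72.0%). Gabrd was among those without one. Both rescues had one at these 9 (70.0% of all marked genes), and the 11 made up most of the 16 genes with a peak in the Ezh1 rescue, where 65.4% of all genes with such a peak were marked in experiment 1. The Ezh2 rescue also had peaks at Grik5 and Grin2d, and it had none that the Ezh1 rescue lacked (1.41% of all genes were of that kind). With 1 library of each rescue these values have no replicate check. Since a coefficient was applied to the Ezh1 rescue and the lists differ in size, breadth in one rescue cannot be read as more of the mark than in the other.

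A peak in both rescues was found at 11 of 41 receptor genes (26.8%, beside 18.1% of all genes), and for 10 of these 11 the Ezh1 rescue covered more of the promoter (92.2% of all such genes). Their median was 4250 bp with Ezh1 and 2144 bp with Ezh2, and over all genes with both it was 4150 and 1600 bp. Of the receptor genes Grm4 differed most, with 4650 bp in the Ezh1 rescue against 215 bp with Ezh2. Grm8 followed with 4750 and 600 bp, and Gabrp with 4700 and 750 bp. All of these were broadly covered in wild type of experiment 1. Gabrd had 3850 bp in the Ezh1 rescue against 0 bp with Ezh2, and Gria2, the GluA2 subunit that makes AMPA receptors impermeable to calcium, had 2200 and 0 bp.

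Other genes kept broad coverage in both rescues. Grin1 had 5000 bp with Ezh1 and 2956 bp with Ezh2, Grik4 had 4450 and 3700 bp, and Grm6 had 4250 and 2300 bp. Grin2c had 3994 and 2144 bp and Grm2 had 2711 and 2200 bp. Grin2d had 3503 and 3450 bp, nearly the same in both, but the TSS of Kdelr1 lies in its window. Grik5 was the one gene with more in the Ezh2 rescue, 663 bp against 313 bp. The Ezh1 rescue alone had peaks at 5 genes (10.7% of all genes), among them Gabrd, Gabrr3 (1850 bp), Gria2 and Grid1 (40 bp). Gabrr1 had 1850 and 550 bp.

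No alpha, beta or gamma GABA-A promoter had a rescue peak (0 of 11 each), beside 28.8% (Ezh1) and 19.6% (Ezh2) of all genes. These promoters also lacked a wild-type peak in experiment 1. The rescue share among all genes without a wild-type peak was not computed, so the absence cannot be read as particular to these subunits. At 9 of the 11 marked genes the Ezh1 rescue covered more of the promoter than either wild-type library of experiment 1 (63.0% of all marked genes), the exceptions being Gabrr1 and Grm6, and at 8 of 11 the Ezh2 rescue covered less than either (73.7%). These comparisons cross antibody and platform. Of the 12 genes with a knockout peak in experiment 1, the Ezh1 rescue reached Grid1 alone, where 7.06% of all genes with a knockout peak and no wild-type peak were reached, and the Ezh2 rescue reached none (3.06%).

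Receptor genes are long, and peaks over the gene body were therefore measured as the share of the gene under peaks. The median gene length was 28.2 kb for marked receptor genes, 368 kb for those with a knockout promoter peak, and 15.5 kb for all genes. Of the 41 genes, 23 span at least 100 kb, as do 10.6% of all genes. Among the 12 with a knockout promoter peak 11 were that long, and among the 11 marked genes 3 were. Over all genes, a knockout promoter peak without a wild-type peak was found at 9.21% of genes of at least 100 kb and at 8.82% of shorter genes. Whether length has a part in the knockout peaks of receptor genes was not tested.

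In wild type the gene body was widely covered at Grin2c (82.9% and 82.3%), Grin1 (73.1% and 62.5%), Grm4 (66.6% and 74.1%), Gabrd (45.8% and 76.5%) and Gabrr1 (41.5% and 55.4%). At least 10% was covered in both wild-type libraries at 10 of 41 genes (24.4%, beside 15.3% of all genes). Grin2d was among them (12.9% and 25.9%) although it had no promoter peak in experiment 1. Knockout coverage of these bodies was 0% except at Grik4 (0 and 0.548%), Grm6 (0 and 3.32%) and Grm4 (0.620% and 19.6%). At Grm4, 82.9% of the knockout coverage of replicate 2 lay within wild-type peaks, so that part of the gene body had peaks in both genotypes while the promoter had none in knockout.

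More of the gene body lay under peaks in knockout than in wild type, with no overlap of the groups, at 18 of 41 receptor genes (43.9%), beside 7.39% of all genes. Among genes of at least 100 kb these were 17 of 23 receptor genes, beside 19.1% of all genes of that length. Wild type was higher at 16 of 41 (39.0%, beside 21.2% of all genes). The order of these 2 counts depended on the setting. With peaks of at least 550 bp alone, knockout was higher at 13 genes and wild type at 15. Without chromosome 5 the counts were 14 and 16. Most of the 18 had low coverage, and with peaks of at least 1000 bp alone the 18 became 4 (2.78% of all genes): Grik3, Grin2b, Grid1 and Grin2a. In replicates 1 and 2, Grin2a had 4.69% and 27.3% of its body under knockout peaks, Grid1 3.66% and 21.3%, Gria1 3.21% and 19.1%, and Grin2b 4.29% and 10.2%. Replicate 2 was higher in each of them. At least 10% of the body was covered in knockout replicate 2 at 6 of 41 genes (14.6%, beside 5.11% of all genes) and in both knockout libraries at Grik3 alone (2.44%, beside 2.51%).

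**Figure D4:**
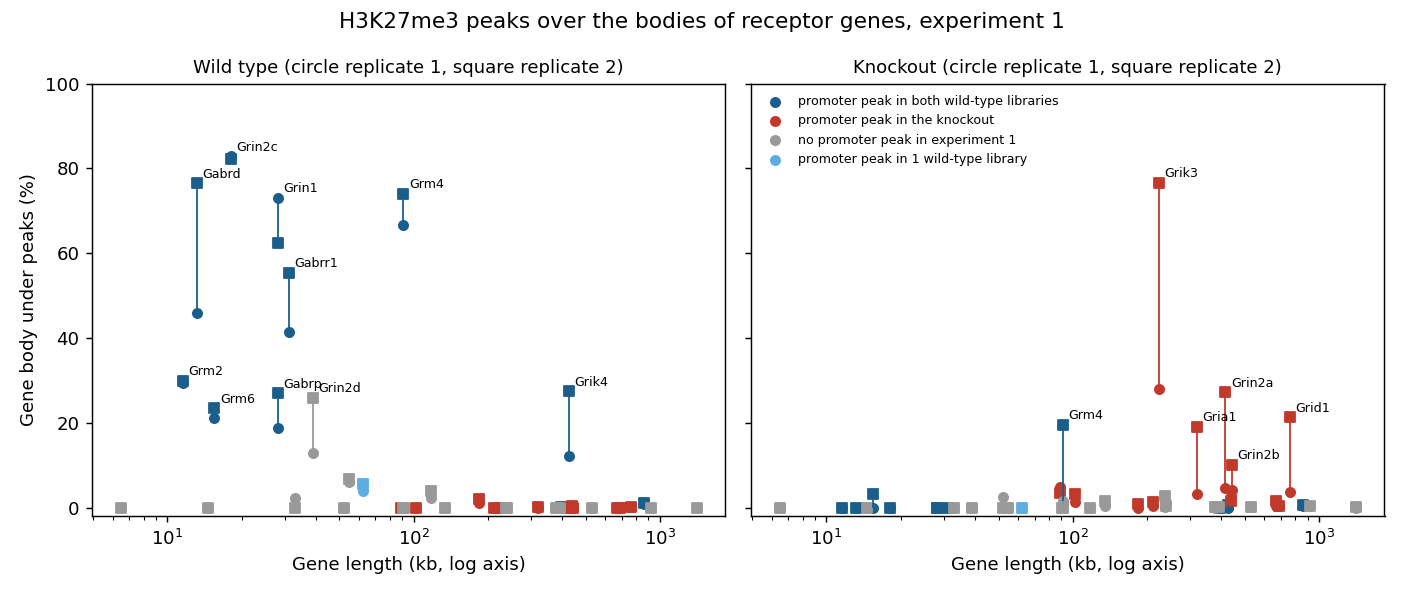
Share of the gene body under peaks (vertical axis, percent) against gene length (horizontal axis, kb, log scale) for the 41 receptor genes in wild type (left) and knockout (right) of experiment 1. Circles are replicate 1, squares are replicate 2, and a line joins the replicates of a gene. High wild-type values lie mostly at short genes such as Grin2c and Grin1, and the highest knockout value, 76.6%, is that of Grik3.

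Grik3 had the broadest knockout coverage. Its body, 223 kb on chromosome 4, had 28.1% and 76.6% under knockout peaks and 0% in both wild-type libraries, which placed it 9th and 10th in knockout replicates 1 and 2 among 2281 genes of at least 100 kb. It was singled out for this value after the values were seen. The peaks went well beyond the gene. In bins of 50 kb, a run of bins with at least 25% covered in knockout replicate 2 spanned 900 kb (chr4:124817944-125717943), which holds 2 protein-coding genes, Grik3 and Csf3r, the receptor for granulocyte colony-stimulating factor. The knockout lists covered 25.0% and 73.1% of this region. The wild-type lists covered 8.41% and 10.2%, with their peaks toward its edges. In experiment 2 the region was covered to 9.29% by the Ezh1 rescue, 2.54% by the Ezh2 rescue and 0% by both knockout lists. With 29 and 382 peaks in all, those lists cannot show whether the domain was present there.

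**Figure D5:**
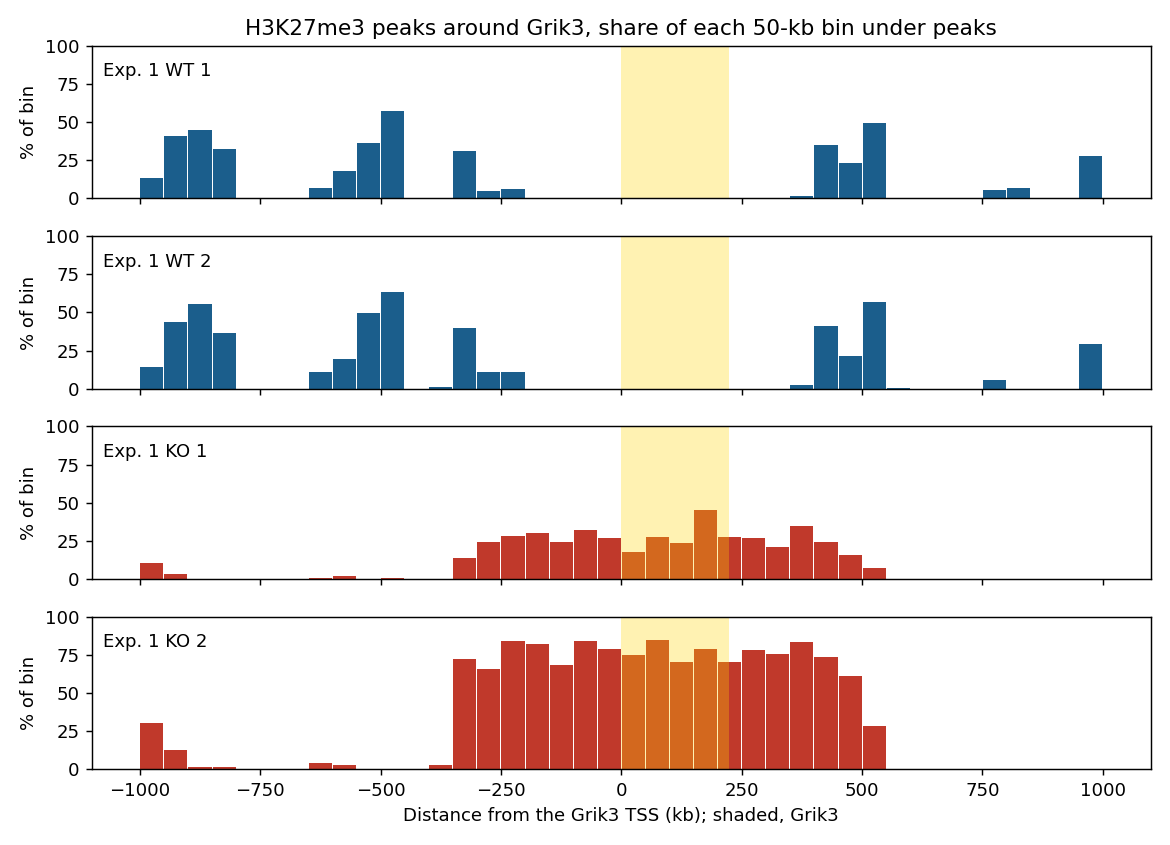
Share of each 50-kb bin under peaks (vertical axis, percent) against distance from the Grik3 TSS (horizontal axis, kb) in the 2 wild-type (blue) and 2 knockout (red) libraries of experiment 1, with Grik3 shaded. Both knockout libraries fill a run of bins over and around the gene that holds no wild-type peak over the gene itself, and the bins are fuller in replicate 2.

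Several GABA-A genes lie close together, and such regions were measured as a whole. The cluster of Gabrg1, Gabra2, Gabra4 and Gabrb1 on chromosome 5 (1387 kb) had 0.0267% and 0.143% under wild-type peaks and 2.30% and 1.85% under knockout peaks. Over all autosomes, 5.64% and 7.05% lay under wild-type peaks and 0.981% and 2.29% under knockout peaks, so the cluster was sparse in wild type. The pair Gabrr2 and Gabrr1 on chromosome 4 (100.6 kb) was the opposite case, with 25.1% and 27.5% in wild type and none in knockout.

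CpG content, which the upstream sequences show for 8 genes, was compared by the same ratio over all receptor genes. Its median was 0.647 over the 11 marked genes, 0.612 over the 12 with a knockout peak and 0.489 over the 17 with no promoter peak in experiment 1 (41.5% of the 41, beside 65.6% of all genes). The median of all 41 and that of all genes were both 0.559. Over all genes the order was the other way, with 0.491 for those marked in both wild-type libraries and 0.593 for those with no peak in experiment 1. Marked receptor genes ranged from 0.142 (Gabrp) to 0.977 (Grin1), and receptor genes with a knockout peak reached 0.930 (Grik3). The classes overlapped over most of their range, and over 5000 bp the difference of the medians between marked and unmarked genes fell from 0.106 to 0.00510.

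No promoter peak was found in any of the 10 libraries at 14 receptor genes (34.1%, beside 58.2% of all genes). Among them were the GABA-A subunits Gabra2, Gabra6, Gabrg1 and Gabrr2, the ionotropic glutamate receptor subunits Gria4, Grik1 and Grin3b, and the metabotropic receptors Grm3, Grm5 and Grm7. The sister genes of group II thus differed, Grm2 with peaks in wild type and both rescues and Grm3 with none.

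Genes that make, carry and anchor the transmitters and receptors were described for context, from lists outside the 41. Of 11 genes for glutamate transport and metabolism, 5 were marked in experiment 1 and none had a knockout peak. The marked ones were Slc17a6 and Slc17a7, vesicular glutamate transporters, Slc1a1 and Slc1a2, plasma membrane transporters, and Glul, glutamine synthetase. Slc17a8, also a vesicular glutamate transporter, had 0 and 0 bp in wild type of experiment 1. Slc17a7 had 3889 and 3961 bp in wild type. Of 16 genes for GABA and glycine, 6 were marked and 6 had a knockout peak, with Slc32a1, the vesicular inhibitory amino acid transporter, in both groups (3860 and 3903 bp in wild type, 0 and 251 bp in knockout). Glrb, the glycine receptor beta subunit, had all 5000 bp covered in both wild-type libraries and 0 bp in both rescues. Slc6a11, a GABA transporter, had no wild-type peak, and 801 and 2302 bp in the knockout replicates. Of 29 auxiliary and scaffold genes, 15 were marked, among them Shank3 (3020 and 2827 bp), Grip2 (5000 and 5000 bp) and the AMPA receptor auxiliary gene Cnih3 (4298 and 5000 bp), and 6 had a knockout peak. The Ezh1 rescue had peaks at 7 of 11, 7 of 16 and 17 of 29 genes of these lists, and the Ezh2 rescue at 5, 5 and 13. Over all genes, 20.7% were marked, 2352 of 21418 had a knockout peak, and 28.8% and 19.6% had a peak in the Ezh1 and Ezh2 rescue.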

How the data were processed

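H3K27me3 ChIP-seq of 12 samples was labelled by condition and replicate, and the 10 with a peak list were used, since the 2 input samples have none. Per the methods, chromatin was digested with micrococcal nuclease. The authors aligned reads to mm9, removed duplicates, down-sampled to a common number, applied coefficients of 0.05 (knockout) and 0.25 (Ezh1 rescue) by the amount of immunoprecipitated DNA, and called peaks in each sample against input. Whether the knockout coefficient was applied in both experiments is not stated. Tools named in the submitters' processing notes are MACS2 2.0.10 and HOMER 3.17, Bowtie 0.12.8 and Bowtie2 2.1.0, and SAMtools. The deposited files hold chromosome, start and end of each peak (positions in bp, with no score). The lists hold no read counts.

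Exact duplicate lines were merged (1, 1, 328 and 181 in the wild-type and rescue lists of experiment 2). Positions are 1-based, and the TSS is the first base of the GENCODE M1 gene. Counts over receptor genes are set beside the same over all 21418 genes, with no p-value over genes, which are not replicates. The members, the pathway and marker lists and the alternatives were chosen with earlier results of these data known. Values of some genes that count among the 41 or the lists are not reported here. Otherwise, values per library are given for the 12 genes with the most wild-type promoter bp in experiment 1, every gene with a knockout promoter peak, and the 5 largest differences in each direction between the rescues. Sequences are the 2 highest and 2 lowest CpG ratios of marked and unmarked genes. Of 83 listed pathway and marker genes, Map2 was not found in the annotation. Knockout was set against wild type by exact two-sided permutation of 2 against 2 libraries. Overlap code was tested on simulated data, with 0 mismatches in 4000 windows. Alternatives varied the window, the TSS, peak width, merging, minimum bp and the libraries used. Python 3.11.15, NumPy 2.4.6, pandas 2.3.3, SciPy 1.17.1 and matplotlib 3.10.9 were used.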

Additional observations from a re-analysis of the deposited data

How the results depend on the processing

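Of 136 alternative values, each judged alone, 18 moved beyond the spread or beyond 1.5 times the main count and none reversed. With 1000 bp either side of the TSS, the mean wild type minus knockout difference of experiment 1 was 201 bp in place of 568, and the genes with a knockout peak were 5 in place of 12. With 5000 bp either side that mean was 1137 bp, the mean difference of experiment 2 was 97.6 bp in place of 27.7, and 3 genes in place of 0 were marked in wild type and without a knockout peak in experiment 2. With the transcript TSS that had the most coverage these were 68.8 bp and 2 genes. Peaks of at least 1000 bp left 6 genes with a knockout promoter peak, 7 with an Ezh2 rescue peak and 6 wider in the Ezh1 rescue, 4 genes with more of the body covered in knockout in place of 18, and a median body difference of 0 in place of -0.228 percentage points. The difference in CpG ratio was 0.00510 over 2500 bp either side. Leaving out 1 library gave 11 to 12 marked genes in experiment 1 and 0 to 3 in experiment 2, 3 to 12 genes with a knockout peak, and mean differences of 457 to 679 bp and of 0 to 55.5 bp. The 3 came without wild-type replicate 1 of experiment 2, and the 3 genes with a knockout peak without knockout replicate 2. Some of these alternatives, those on knockout peaks and on body counts, were chosen after seeing the data.

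With the replicate block, 11 genes of experiment 1 and 0 of experiment 2 were at the smallest permutation p, as without it, and with 2 pairs that p is 0.5. The replicate numbers mark no shared origin in the labels. The deviations of same-numbered libraries correlated at 0.00228 in experiment 1 and -0.0116 in experiment 2. Few promoters had peaks in both genotypes: 1.60% of all genes were marked in wild type with a knockout peak in experiment 1. In experiment 2 only 0.397% had a knockout peak. The correlation therefore cannot show whether same-numbered libraries share an origin. Depth, for which the lists give no counts, limits every absence of a peak.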

Other observations

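The receptor genes on the X chromosome, left out of the 41, had no promoter peak. Gria3, an AMPA subunit, and Gabra3, Gabre and Gabrq, GABA-A subunits, had 0 bp under peaks in all 10 libraries, as had the glycine receptor genes Glra2 and Glra4.

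Other transcript starts of the same genes gave other values. The start of Grik3 at position 125336884 of chromosome 4 had 0 bp in both wild-type libraries of experiment 1 and 2346 and 4538 bp in the knockout libraries, where the start of the gene had 0 and 1970 bp. A start of Grm4 (chromosome 17, 27640249) had 650 and 1800 bp in the wild-type libraries of experiment 2, and one of Grin2c (chromosome 11, 115126743) had 458 and 458 bp. Both genes had 0 bp at the gene start there. A start of Gabrr3, the rho3 subunit (chromosome 16, 59433209), had 950 and 1577 bp in wild type of experiment 1, where the gene start had none. These starts were the ones with the most bp under peaks over all libraries.

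The distance from the TSS to the nearest peak varied from gene to gene within a class. Since the classes rest on peaks at the promoter, the short wild-type distance of marked genes follows from their definition. For the 12 genes with a knockout promoter peak, the median distance was 465 and 420 kb in the wild-type libraries of experiment 1, although for Grid1 it was 6.95 and 7.47 kb. For the 17 with no promoter peak in that experiment it was 478 and 457 kb, with lower values such as 8.55 and 7.85 kb at Gria2, against 0.306 and 0.294 kb for the 11 marked genes.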
